A study of Mus musculus with 12 samples.

Results

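The genes described here are 10 transcripts that neutrophils make for their granules or carry as alarmins: S100a8, S100a9, Lcn2, Ngp, Camp, Ltf, Mpo, Elane, Retnlg and Cd177. They were chosen by symbol, and each of the 10 was found as a single row among the 21956 genes of the table. Their counts were compared in hematoma-adjacent brain tissue of 12 mice, 3 in each of 4 groups: Sham-Fabp4 fl/fl, Sham-Fabp4CKO, ICH-Fabp4 fl/fl and ICH-Fabp4CKO. ICH, intracerebral hemorrhage, was induced by injecting collagenase into the right striatum, sham surgery left the collagenase out, and tissue was taken 48 h after ICH. Both genotypes carried floxed Fabp4 alleles. Fabp4CKO mice also carried a Tmem119-creERT2 allele, so that the inducible Cre was driven by a microglial promoter, and were given 7 daily doses of tamoxifen (150 mg/kg) that ended 14 days before surgery. Whether the fl/fl mice received tamoxifen, and the age and sex of the mice sequenced, are not given in the sources used here. Each library held poly(A) RNA of all cells in the tissue piece, blood in its vessels and in the hematoma margin included. In bulk tissue of this kind, fewer cells of a type and less RNA per cell cannot be told apart.

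Neutrophils build their granules in a fixed order while they mature in the bone marrow. Azurophil granule genes such as Mpo and Elane are transcribed first, in promyelocytes. Specific granule genes such as Ngp, Camp and Ltf follow in myelocytes and metamyelocytes, and these transcripts are low in mature neutrophils. S100a8 and S100a9 encode the subunits of calprotectin, the most abundant cytosolic protein of the mature cell, which acts as an alarmin through TLR4 once it is released. After ICH, neutrophils are among the first blood leukocytes to enter the tissue around the hematoma. Lcn2, lipocalin 2, stands apart in brain because reactive astrocytes also make it, so that its transcript does not mark neutrophils alone.

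Library totals ran from 15650813 to 22406216 counts, which made 3 counts, the floor used here, equal to 0.134 to 0.211 CPM (counts scaled to a common library total, with edgeR's TMM factors). Fabp4, the targeted gene, had 46, 63 and 24 counts in the ICH-Fabp4 fl/fl libraries and 5, 3 and 10 in the ICH-Fabp4CKO libraries. Libraries that stood apart were ICH-Fabp4CKO mouse 1, with 1 read from Y-linked genes against 1302 to 2251 in the other 11 libraries, and ICH-Fabp4 fl/fl mouse 1, with 16.3% mitochondrial counts against 7.90% to 11.9%. By the Y-linked reads, ICH-Fabp4CKO mouse 1 reads as female and the other 11 mice as male, so sex appears mixed within that group. Summed striatal neuron genes reached 2505 CPM in ICH-Fabp4CKO mouse 2 and 2871 CPM in ICH-Fabp4 fl/fl mouse 3, against 937 to 1339 CPM in the other 4 ICH libraries. Their part in the results was not tested.

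The alarmin pair rose after ICH in both genotypes. S100a8 (ENSMUSG00000056054) had 0, 3 and 3 counts in Sham-Fabp4 fl/fl and 1, 4 and 1 in Sham-Fabp4CKO. After ICH it had 71, 18 and 28 counts in Fabp4 fl/fl mice and 321, 57 and 360 in Fabp4CKO mice. Sham libraries were thus at or near the floor, every ICH library lay above every sham library, and the ICH genotypes overlapped through Fabp4CKO mouse 2. In CPM the ICH levels of S100a8 were 4.99, 1.12 and 1.49 in Fabp4 fl/fl mice and 20.7, 3.04 and 19.7 in Fabp4CKO mice. S100a9 (ENSMUSG00000056071), the partner subunit, stood at 0.723, 0.383 and 0.929 CPM in Sham-Fabp4 fl/fl and 0.0925, 0.940 and 0.138 CPM in Sham-Fabp4CKO. After ICH S100a9 reached 9.71, 2.87 and 1.75 CPM in Fabp4 fl/fl mice and 50.7, 6.18 and 49.4 CPM in Fabp4CKO mice. Again no ICH library overlapped with the sham libraries, and mouse 2 was the low library of ICH-Fabp4CKO.

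S100a8 rose by a log2 fold change of 4.46 (standard error, SE, 0.93, adjusted p = 0.00832 by the quasi-likelihood F-test of edgeR, Benjamini-Hochberg over every gene tested) in Fabp4 fl/fl mice. In Fabp4CKO mice it rose by 7.22 (SE 1.03, adjusted p = 0.00759). For S100a9 the increases were 2.73 (SE 0.70, adjusted p = 0.0176) and 6.47 (SE 1.16, adjusted p = 0.0121). Folds against groups with so few counts depend on the prior count of the fit. A ratio of summed counts per depth put S100a8 in ICH-Fabp4 fl/fl at 23.2 times the sham level, with a 95% interval of 10.3 to 64.5 that covers counting error only. Without ICH-Fabp4 fl/fl mouse 1, the library with the most mitochondrial counts, the increases in Fabp4 fl/fl mice were 3.54 for S100a8 and 1.71 for S100a9 (adjusted p = 0.0170 and 0.0366). With each library left out in turn they ran from 3.54 to 4.84 for S100a8 and from 1.71 to 3.12 for S100a9, and in Fabp4CKO mice from 6.87 to 8.10 and from 6.01 to 8.18, highest without Sham-Fabp4CKO mouse 2. The S100a9 call in Fabp4 fl/fl mice was lost without Sham-Fabp4 fl/fl mouse 1 (2.72, adjusted p = 0.0516) or mouse 2 (2.41, adjusted p = 0.0666), and in Fabp4CKO mice without Sham-Fabp4CKO mouse 1 (6.01, adjusted p = 0.0611) or mouse 3 (6.07, adjusted p = 0.0621). S100a8 lost its call in Fabp4CKO mice without Sham-Fabp4CKO mouse 3 (6.91, adjusted p = 0.0507).

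The pair kept close to each other from mouse to mouse. In the 6 ICH libraries S100a9 had 1.18 to 2.56 counts per count of S100a8, and S100a8 ranked 3rd among 15088 genes by likeness of its profile to S100a9. Likeness was the root mean square difference between centred log2 CPM profiles over the 12 libraries, 0.73 for S100a8 against a median of 2.57 over all genes. The 5 nearest genes outside the 10 were Folr2 (0.63), Anpep (0.72), Cd300a (0.76), Plau (0.77) and Col1a1 (0.77). Of these 5, Folr2, a folate receptor of tissue macrophages, and Col1a1, a fibrillar collagen chain, are not neutrophil genes. Which cells held any of the 5 was not tested. Both genes lie beside each other on chromosome 3, and the 250 bases before each start site are shown because their transcripts moved together. They come from RefSeq (GRCm38.p6), S100a8 at chr3:90668821-90669070 on the plus strand and S100a9 at chr3:90695722-90695971 on the minus strand, printed 5′ to 3′ along the gene. Capitals mark the ETS core GAGGAA, which PU.1 and related factors read and which is written TTCCTC on the other strand, and the C/EBP motif TTGCNNAA, written TTNNGCAA on the other strand.
S100a8: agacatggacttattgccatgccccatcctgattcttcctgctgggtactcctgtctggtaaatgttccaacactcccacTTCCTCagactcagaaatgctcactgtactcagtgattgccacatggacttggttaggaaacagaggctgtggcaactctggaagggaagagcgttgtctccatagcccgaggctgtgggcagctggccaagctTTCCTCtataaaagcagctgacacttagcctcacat
S100a9: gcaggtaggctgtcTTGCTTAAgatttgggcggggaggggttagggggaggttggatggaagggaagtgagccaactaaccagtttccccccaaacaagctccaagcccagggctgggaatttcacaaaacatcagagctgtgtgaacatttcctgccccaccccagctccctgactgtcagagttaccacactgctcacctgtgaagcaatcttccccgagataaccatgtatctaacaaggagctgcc
S100a8 held the ETS core at 170 to 165 and again at 36 to 31 bases before its start, S100a9 a C/EBP match at 236 to 229 bases. Over the 32851 promoters of that length in the same table, 23.3% held the ETS core and 9.56% the C/EBP motif. A match is a description of letters and not of a bound site.

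**Figure D1:**
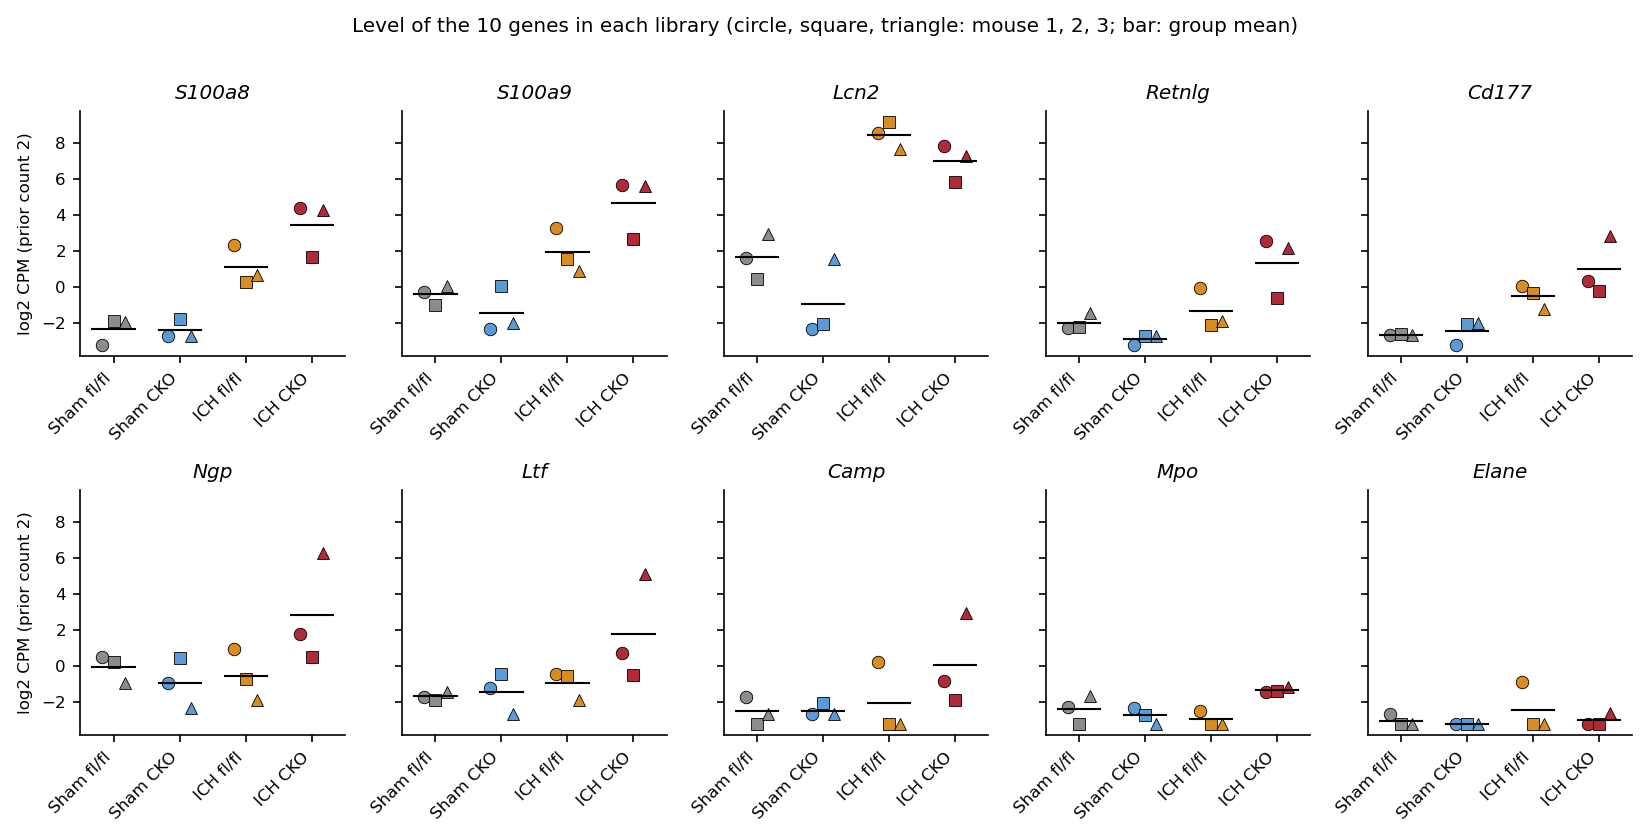
Level of each of the 10 genes as log2 CPM with a prior count of 2 (vertical axis) in the 4 groups, with circle, square and triangle for mouse 1, 2 and 3 and a bar for the group mean. S100a8, S100a9 and Lcn2 lie above sham in all 6 ICH libraries, whereas Ngp, Ltf and Camp are far above the rest only in ICH-Fabp4CKO mouse 3.

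Retnlg and Cd177 are products of late neutrophil maturation, Retnlg a resistin-like secreted protein and Cd177 a surface glycoprotein that is also stored in specific granules. Retnlg (ENSMUSG00000022651) had 2, 2 and 5 counts in Sham-Fabp4 fl/fl, 0, 1 and 1 in Sham-Fabp4CKO, 12, 2 and 3 in ICH-Fabp4 fl/fl and 90, 10 and 79 in ICH-Fabp4CKO. Its ICH and sham libraries overlapped in Fabp4 fl/fl mice and did not overlap in Fabp4CKO mice. Cd177 (ENSMUSG00000052212) had 1, 1 and 1 counts in Sham-Fabp4 fl/fl, 0, 3 and 3 in Sham-Fabp4CKO, 13, 11 and 6 in ICH-Fabp4 fl/fl and 18, 14 and 130 in ICH-Fabp4CKO. Every ICH library lay above every sham library of its genotype, and mouse 3 held 80.2% of the Cd177 counts of ICH-Fabp4CKO.

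Both rose after ICH in Fabp4CKO mice, Retnlg by a log2 fold change of 6.60 (SE 1.23, adjusted p = 0.0132) and Cd177 by 4.96 (SE 1.25, adjusted p = 0.0295). In Fabp4 fl/fl mice neither passed edgeR's filter on low counts. With the filter off, Cd177 rose by 3.36 (adjusted p = 0.0115) and Retnlg had a log2 fold change of 1.10 (adjusted p = 0.383) in that genotype. The Fabp4CKO calls depended on single libraries. Retnlg had a log2 fold change of 6.06 to 7.11 with each library left out in turn. It was not called without any one of the 3 Sham-Fabp4CKO libraries (adjusted p from 0.0632 to 0.0643). Cd177 was not called without any of those 3 either (adjusted p from 0.0958 to 0.0983), nor without ICH-Fabp4CKO mouse 1 (adjusted p = 0.0589). Its log2 fold change was 3.27 (adjusted p = 0.0463) without mouse 3.

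The specific granule genes followed another pattern, in which a single library stood far above the other 11. Ngp (ENSMUSG00000032484), which encodes a cathelicidin-like granule protein, had 27, 19 and 8 counts in Sham-Fabp4 fl/fl, 9, 28 and 2 in Sham-Fabp4CKO, 26, 8 and 3 in ICH-Fabp4 fl/fl and 52, 24 and 1433 in ICH-Fabp4CKO. Sham and ICH-Fabp4 fl/fl libraries overlapped, and ICH-Fabp4CKO mouse 3, at 78.3 CPM, held 94.96% of its group's counts. Ltf (ENSMUSG00000032496), the iron-binding protein lactoferrin, had 4, 3 and 5 counts, then 7, 14 and 1, then 9, 9 and 3, then 24, 11 and 639 in the same order of groups. Camp (ENSMUSG00000038357), the antimicrobial peptide cathelicidin, had 4, 0 and 1 counts, then 1, 3 and 1, then 15, 0 and 0, then 7, 3 and 138. Mouse 3 held 94.8% of the Ltf counts and 93.2% of the Camp counts of ICH-Fabp4CKO.

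None of the 3 was called after ICH in either genotype. Ngp had a log2 fold change of -0.25 (SE 0.81, adjusted p = 0.820) in Fabp4 fl/fl mice and of 5.54 (SE 1.83, adjusted p = 0.0564) in Fabp4CKO mice. Ltf had 5.19 (SE 1.77, adjusted p = 0.0611) in Fabp4CKO mice and did not pass the filter in Fabp4 fl/fl mice, and Camp passed it in neither. With the filter off, Camp had 5.05 (adjusted p = 0.0573) in Fabp4CKO mice. Without ICH-Fabp4CKO mouse 3 the Fabp4CKO value fell to 1.94 for Ngp (adjusted p = 0.168) and 1.63 for Ltf (adjusted p = 0.217). Without mouse 2 of that group both were called, Ngp at 6.10 (adjusted p = 0.00434) and Ltf at 5.76 (adjusted p = 0.00507), and both were also called with all 12 libraries in one fit (adjusted p = 0.0152 and 0.0138). DESeq2 gave no adjusted p for either gene.

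Ltf was the gene nearest to Ngp in profile over the 12 libraries, with a root mean square difference of 0.72, and the nearest to Ngp outside the 10 were Mfap4 (1.10), Eln (1.10), Twist1 (1.20), Fap (1.27) and Sbk2 (1.29). Elastin, the product of Eln, and Fap, a fibroblast protease, are products of connective tissue cells. Eln itself had 367, 159 and 1679 counts in ICH-Fabp4CKO and 295, 142 and 109 in ICH-Fabp4 fl/fl, so it was high in the same mouse 3. The Ngp and Ltf promoters are printed because these transcripts moved together. Both belong to chromosome 9 in RefSeq (GRCm38.p6), on the plus strand, Ngp at chr9:110419558-110419807 and Ltf at chr9:111019042-111019291, with capitals as for S100a8.
Ngp: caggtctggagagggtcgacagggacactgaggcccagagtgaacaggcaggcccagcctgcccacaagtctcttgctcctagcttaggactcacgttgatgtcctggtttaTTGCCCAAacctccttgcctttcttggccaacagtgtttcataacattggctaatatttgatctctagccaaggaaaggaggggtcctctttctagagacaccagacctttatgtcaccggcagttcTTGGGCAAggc
Ltf: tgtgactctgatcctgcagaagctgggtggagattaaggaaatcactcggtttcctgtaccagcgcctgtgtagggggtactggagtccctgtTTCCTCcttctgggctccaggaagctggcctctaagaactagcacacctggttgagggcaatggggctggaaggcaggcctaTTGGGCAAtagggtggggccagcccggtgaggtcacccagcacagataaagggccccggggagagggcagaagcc
The letters TTGGGCAA stood in both, at 11 to 4 bases before the Ngp start and 75 to 68 bases before the Ltf start, and Ngp held a further match, TTGCCCAA, at 138 to 131 bases. Among the 10 promoters 5 held a C/EBP match (S100a9, Lcn2, Ngp, Ltf and Retnlg) and 6 held the ETS core (S100a8, Lcn2, Ltf, Mpo, Elane and Cd177). C/EBP epsilon, the factor needed for specific granules, is encoded by Cebpe, which had 5, 2 and 17 counts in ICH-Fabp4CKO, 0, 1 and 2 in ICH-Fabp4 fl/fl and 0 to 2 in each sham library.

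Azurophil granule genes were barely detected in any group. Mpo (ENSMUSG00000009350), myeloperoxidase, had 2, 0 and 4 counts in Sham-Fabp4 fl/fl, 2, 1 and 0 in Sham-Fabp4CKO, 1, 0 and 0 in ICH-Fabp4 fl/fl and 4, 5 and 6 in ICH-Fabp4CKO. Although the ICH-Fabp4CKO libraries were all above the other ICH libraries, these are 15 counts against 1, a ratio of 14.01 per depth with a 95% counting interval of 2.16 to 590. Elane (ENSMUSG00000020125), neutrophil elastase, had 6 counts in ICH-Fabp4 fl/fl mouse 1 and at most 1 in every other library. Neither passed the filter in any comparison. With the filter off, Mpo had a log2 fold change of 3.42 between the ICH genotypes (unadjusted p = 0.0143, adjusted p = 0.385) and of 2.47 after ICH in Fabp4CKO mice (unadjusted p = 0.0246, adjusted p = 0.0684), and 4.50 in the interaction (unadjusted p = 0.0224, adjusted p = 0.461). Elane had no unadjusted p under 0.05 in these fits, and neither gene was called.

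Lcn2 (ENSMUSG00000026822), the siderophore-binding lipocalin, behaved differently from the other 9. It stood at 2.99, 1.26 and 7.69 CPM in Sham-Fabp4 fl/fl and 0.0925, 0.134 and 2.80 CPM in Sham-Fabp4CKO. After ICH it reached 384, 577 and 204 CPM in Fabp4 fl/fl mice and 234, 56.8 and 156 CPM in Fabp4CKO mice. All ICH libraries lay far above all sham libraries, and in contrast to the alarmin pair the ICH-Fabp4 fl/fl libraries held the highest levels. The log2 fold change after ICH was 6.55 (SE 0.75, adjusted p = 0.000801) in Fabp4 fl/fl mice and 7.20 (SE 1.26, adjusted p = 0.0115) in Fabp4CKO mice. The latter call was lost without Sham-Fabp4CKO mouse 1 (6.66, adjusted p = 0.0558) or mouse 2 (6.68, adjusted p = 0.0566), and the value was 10.28 (adjusted p = 0.0446) without mouse 3. In Fabp4 fl/fl mice it ran from 6.09 to 7.41, highest without Sham-Fabp4 fl/fl mouse 3, and stayed called.

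Lcn2 dominated the summed counts of the 10 genes after ICH, with 94.9% to 99.0% of them in ICH-Fabp4 fl/fl and 43.7% to 81.6% in ICH-Fabp4CKO. Per count of S100a8 and S100a9 there were 26.1, 145 and 62.9 counts of Lcn2 in ICH-Fabp4 fl/fl and 3.28, 6.16 and 2.26 in ICH-Fabp4CKO. These ratios did not overlap between the genotypes, and in ICH-Fabp4 fl/fl they rest on 209, 64 and 61 counts of the pair. How often ratios of other genes are free of overlap was not measured, so nothing is read from that. The genes nearest to Lcn2 in profile were Saa3 (1.02), Clec4n (1.06), Timp1 (1.12), Selp (1.26) and Tgm1 (1.31), whereas S100a8 (2.49) and S100a9 (2.61) ranked 548th and 704th and Ngp (3.95) 6820th. Saa3, an acute-phase serum amyloid A, had 43.1, 82.4 and 31.3 CPM in ICH-Fabp4 fl/fl and 53.8, 5.06 and 18.7 CPM in ICH-Fabp4CKO. The bases before the Lcn2 start are shown for comparison with the granule genes above (RefSeq, GRCm38.p6, chr2:32387740-32387989, minus strand).
Lcn2: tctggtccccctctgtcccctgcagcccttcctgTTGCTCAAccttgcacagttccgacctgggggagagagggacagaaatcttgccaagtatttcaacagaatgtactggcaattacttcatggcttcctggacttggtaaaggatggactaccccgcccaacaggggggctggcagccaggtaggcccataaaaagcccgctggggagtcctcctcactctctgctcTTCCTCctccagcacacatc
Its C/EBP match, TTGCTCAA, lay at 216 to 209 bases and its ETS core at 20 to 15 bases before the start.

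**Figure D2:**
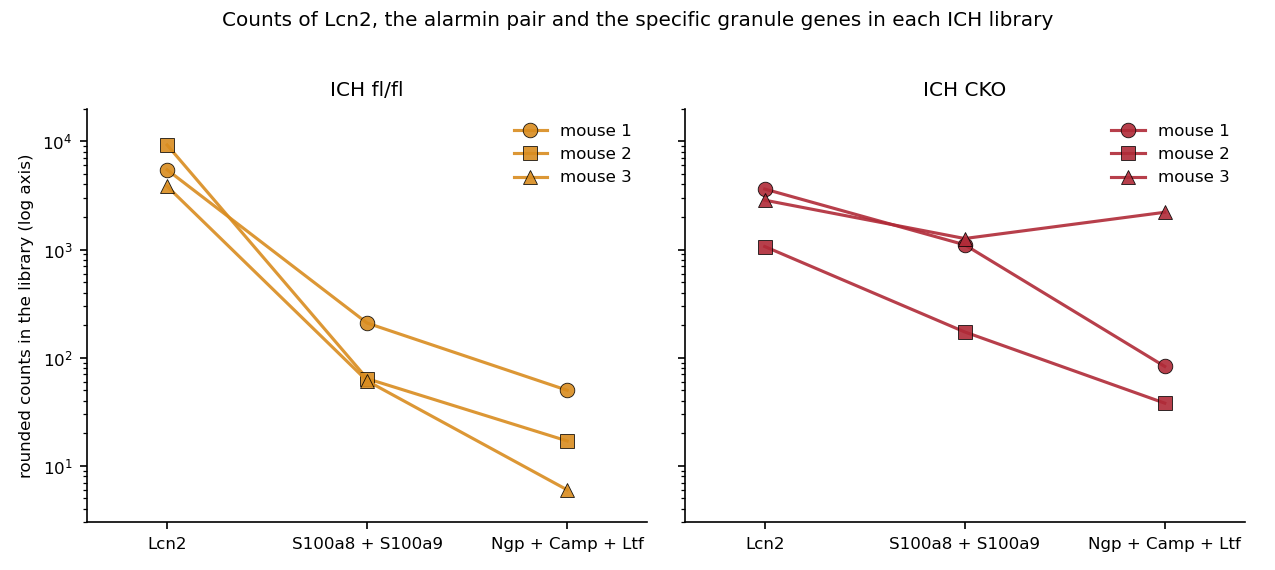
Rounded counts (log axis) of Lcn2, of S100a8 and S100a9 together and of Ngp, Camp and Ltf together in each ICH library, with a line for each mouse. Lcn2 leads in all 6 libraries, and ICH-Fabp4CKO mouse 3 differs from the other 5 in its 2210 counts of Ngp, Camp and Ltf.

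Because reactive astrocytes also make Lcn2, a list of 12 reactive astrocyte genes was counted beside it. All 12 were called higher after ICH in Fabp4 fl/fl mice and 11 of 12 in Fabp4CKO mice, where 26.2% and 24.5% of all genes tested were. Their median log2 fold changes were 4.24 and 4.52, against 0.02 and 0.01 over all genes tested. Their summed level was 6835 to 10003 CPM in ICH-Fabp4 fl/fl, 4344 to 6350 CPM in ICH-Fabp4CKO and 230 to 581 CPM in the sham libraries. That sum was thus lower in every ICH-Fabp4CKO library than in every ICH-Fabp4 fl/fl library. Of the 12 genes, 0 were called between the ICH genotypes and 2 were lower at an unadjusted p under 0.05, where 5.82% of genes tested were. Values were negative for 11 of the 12 and positive for 1. Gfap, the astrocyte filament gene, had a log2 fold change of -0.56 between the ICH genotypes (SE 0.25, adjusted p = 0.436), and Serpina3n, a marker of reactive astrocytes, one of -0.85 (SE 0.37, adjusted p = 0.420). These 2 genes held most of the sum in every ICH library. Their means were 4290 and 1701 CPM in ICH-Fabp4 fl/fl and 2805 and 904 CPM in ICH-Fabp4CKO. The share of Lcn2 made by astrocytes, neutrophils or other cells was not tested.

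Counted over the 10 genes, the changes read as follows. After ICH in Fabp4 fl/fl mice 4 of the 10 passed the filter and 3 of those were called higher, 0 lower, where 26.2% of 14719 genes tested were called higher and 19.3% lower. Between these groups 4 of the 10 did not overlap (S100a8, S100a9, Lcn2 and Cd177, all higher), where 34.4% of genes tested were higher without overlap. In Fabp4CKO mice 7 of the 10 passed the filter and 5 were called higher, 0 lower, where 24.5% and 11.1% of 14737 genes were, and 8 of the 10 were higher without overlap, where 33.2% of genes were. With each library left out in turn, the number called ran from 3 to 4 in Fabp4 fl/fl mice and from 1 (without Sham-Fabp4CKO mouse 1 or 3) to 7 (without ICH-Fabp4CKO mouse 2) in Fabp4CKO mice. A gene at the floor in sham passed the filter through its ICH libraries, so these calls are no measure of the 10 as a set. The 2 comparisons share no libraries.

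**Figure D3:**
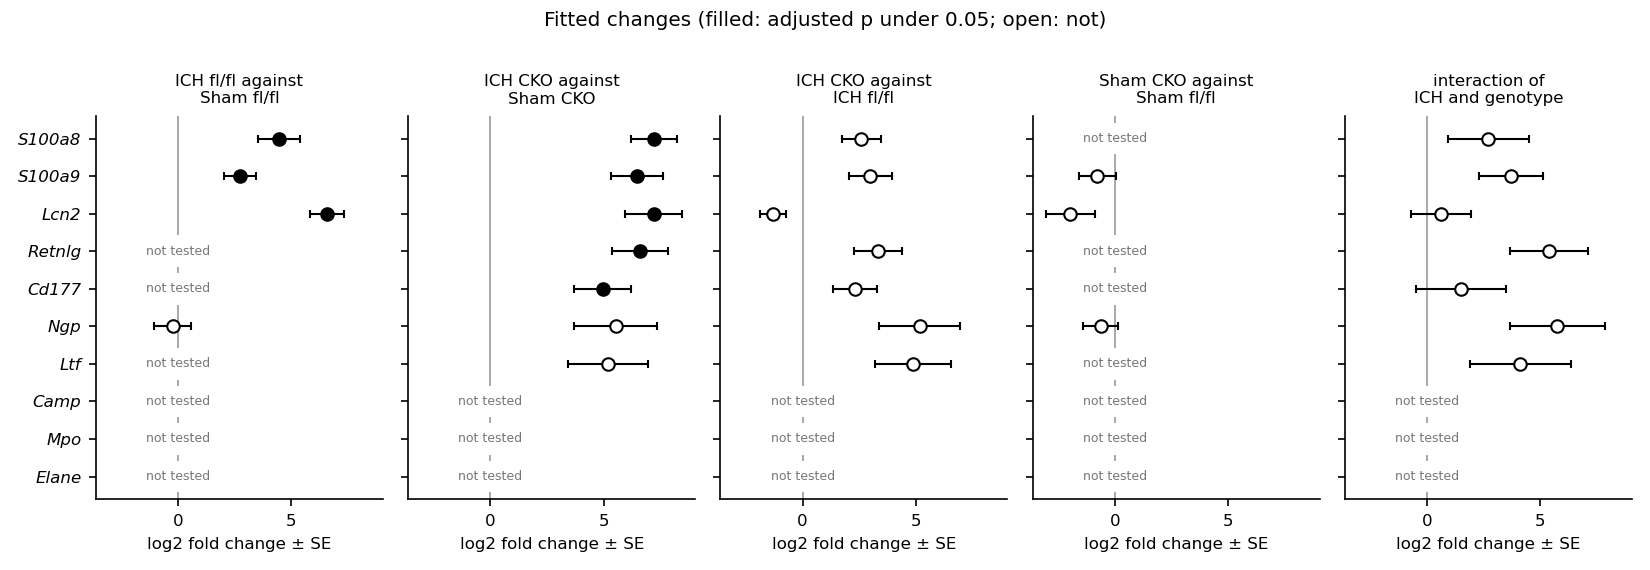
Log2 fold change with standard error (horizontal axis) of the 10 genes in the 4 group comparisons and the interaction, filled where the adjusted p was under 0.05. Filled points occur in the 2 comparisons of ICH with sham, and S100a8, S100a9, Retnlg, Cd177, Ngp and Ltf have positive values and Lcn2 a negative value between the ICH genotypes.

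Between ICH-Fabp4CKO and ICH-Fabp4 fl/fl, the comparison of the genotypes after hemorrhage, none of the 10 passed the adjusted threshold. The Cre allele went with the loss of Fabp4, as did tamoxifen if the fl/fl mice had none, and these cannot be told apart here. Its libraries are those of the comparisons with sham, so the values are not independent of them. The 7 genes tested gave 0 calls with edgeR's quasi-likelihood test, which called 0 of 14600 genes (0%), and 3 calls with DESeq2. At an unadjusted p under 0.05, 6 of the 7 were higher in ICH-Fabp4CKO, where 6.36% of all genes tested were. Retnlg and Ltf, at 2 to 12 counts in the ICH-Fabp4 fl/fl libraries, passed the filter through the ICH-Fabp4CKO libraries where they were high, and Ngp and Cd177 largely so, so nothing is read from that count. S100a8 had a log2 fold change of 2.59 (SE 0.86, adjusted p = 0.350), S100a9 of 2.98 (SE 0.95, adjusted p = 0.347) and Retnlg of 3.33 (SE 1.06, adjusted p = 0.347). These were the 3 genes that DESeq2 called, with adjusted p = 0.0489, 0.0255 and 0.0426.

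Ngp and Ltf had the largest fitted differences of the 7 between the ICH genotypes and the largest errors. Ngp had a log2 fold change of 5.18 (SE 1.79, adjusted p = 0.355), Ltf of 4.85 (SE 1.68, adjusted p = 0.355) and Cd177 of 2.31 (SE 0.96, adjusted p = 0.410). Without ICH-Fabp4CKO mouse 3 the value was 1.58 for Ngp and 0.65 for Cd177, and Ltf no longer passed the filter. The alarmin pair depended less on that mouse, with 2.31 for S100a8 and 2.66 for S100a9 without it. Without ICH-Fabp4CKO mouse 1, the library with 1 Y-linked read, S100a8 had 2.25, S100a9 2.63 and Retnlg 2.78. Without mouse 2, which was low in all 3, their values were 3.08, 3.48 and 3.85 (adjusted p = 0.0766, 0.0757 and 0.0757). The values were highest without ICH-Fabp4 fl/fl mouse 1, at 3.49, 3.98 and 4.59 (adjusted p = 0.629, 0.612 and 0.632), and Ngp was at 6.44 without it.

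Lcn2 pointed the other way between the ICH genotypes. Its log2 fold change was -1.32 (SE 0.58, unadjusted p = 0.0596, adjusted p = 0.427), and it stayed between -1.80 and -0.92 when each library was left out in turn. The group means were 149 ± 88.9 CPM in ICH-Fabp4CKO and 388 ± 186 CPM in ICH-Fabp4 fl/fl (SD, n = 3), and ICH-Fabp4CKO mouse 1, at 234 CPM, lay above ICH-Fabp4 fl/fl mouse 3, at 204 CPM. Of the 10 genes, 9 overlapped between the ICH genotypes, and Mpo, at the counts given above, was higher without overlap, where 8.3% of genes tested were.

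In sham mice none of the 10 was called between the genotypes. The 3 genes that passed the filter had 0 calls with edgeR, 0 at an unadjusted p under 0.05 and 0 with DESeq2, where edgeR called 0.111% of 14395 genes and 10.2% had an unadjusted p under 0.05. Log2 fold changes of Sham-Fabp4CKO against Sham-Fabp4 fl/fl were -0.77 for S100a9 (SE 0.80, adjusted p = 0.688), -1.97 for Lcn2 (SE 1.09, adjusted p = 0.529) and -0.62 for Ngp (SE 0.77, adjusted p = 0.737). With each library left out in turn they ran from -2.49 (without Sham-Fabp4CKO mouse 2) to -0.33 for S100a9 (without mouse 1). For Lcn2 they ran from -5.06 (without Sham-Fabp4CKO mouse 3) to -1.06 (without Sham-Fabp4 fl/fl mouse 3), and for Ngp from -1.82 (without Sham-Fabp4CKO mouse 2) to -0.14 (without mouse 3). Lcn2 was low in Sham-Fabp4CKO mice 1 and 2 and overlapped with Sham-Fabp4 fl/fl in mouse 3. Retnlg, not tested at 9 counts against 2, was the only gene of the 10 whose sham groups did not overlap, where 8.86% of genes tested were lower in this way.

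Whether the ICH effect differed between the genotypes was tested as an interaction over all 12 libraries. It gave 0 calls among the 7 genes tested with edgeR and 0 with DESeq2, where edgeR called 0.0199% of 15089 genes. At an unadjusted p under 0.05 there were 3 higher, where 5.57% of genes were, Retnlg (5.39, SE 1.72, adjusted p = 0.346), S100a9 (3.69, SE 1.42, adjusted p = 0.420) and Ngp (5.75, SE 2.11, adjusted p = 0.398). Retnlg and Ngp passed the filter here largely through ICH-Fabp4CKO libraries where they were high, so nothing is read from that count. Lcn2 had 0.60 (SE 1.32, adjusted p = 0.919), which turned to -0.30 without Sham-Fabp4 fl/fl mouse 3 and was 3.67 without Sham-Fabp4CKO mouse 3. Retnlg was called without ICH-Fabp4CKO mouse 2 (5.91, adjusted p = 0.0465). S100a9 was at 5.40 without Sham-Fabp4CKO mouse 2, and Ngp was at 2.15 without ICH-Fabp4CKO mouse 3. Without ICH-Fabp4 fl/fl mouse 1, Retnlg was at 6.72 and Ngp at 7.07.

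The balance of the granule classes also differed among libraries. Counts of Ngp, Camp and Ltf per count of S100a8 and S100a9 were 0.239, 0.266 and 0.0984 in ICH-Fabp4 fl/fl and 0.0750, 0.220 and 1.75 in ICH-Fabp4CKO. In the sham libraries, at 3 to 25 counts of the alarmin pair, they ran from 0.667 to 5.67. Among ICH libraries only Fabp4CKO mouse 3 had more specific granule than alarmin counts, while its S100a9 level, 49.4 CPM, lay next to the 50.7 CPM of mouse 1, where Ngp was 3.36 CPM. Expression per length, from GENCODE exon lengths summed over isoforms, placed the 10 in order within ICH-Fabp4 fl/fl as Lcn2, S100a9, S100a8 and Ngp, at means of 148, 9.15, 3.65 and 0.678 CPM per kb. In ICH-Fabp4CKO the order of means was S100a9 (67.9), Lcn2 (56.9), Ngp (22.6) and S100a8 (20.9), all in CPM per kb. Lcn2 and S100a9 overlapped there, at 21.7 to 89.3 and 11.8 to 97.2, as did Ngp and S100a8, at 1.05 to 64.1 and 4.38 to 29.9.

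Other neutrophil genes were read from 2 further lists. Of 8 other granule genes, 4 rose and 1 fell in Fabp4 fl/fl mice among 5 tested, and 4 rose and 0 fell in Fabp4CKO mice among 6 tested, where 26.2% and 24.5% of all genes tested were called higher. Mmp8, the neutrophil collagenase, had 2, 0 and 2 counts in Sham-Fabp4 fl/fl and 397, 369 and 243 in ICH-Fabp4 fl/fl, against 2, 2 and 1 in Sham-Fabp4CKO and 520, 90 and 1195 in ICH-Fabp4CKO. It rose by 8.09 (SE 0.56, adjusted p = 0.000305) and 8.72 (SE 1.29, adjusted p = 0.00791) on the log2 scale. Chil3, a chitinase-like protein also made by macrophages, rose by 6.49 (adjusted p = 0.000760) in Fabp4 fl/fl mice, and rose in Fabp4CKO mice (adjusted p = 0.00763) from 0 counts in all 3 sham libraries to 747, 236 and 659, so that no fold is given there. Mmp9, a gelatinase of tertiary granules, rose by 3.25 (adjusted p = 0.0203) and 4.36 (adjusted p = 0.0157), and Mmp25, a membrane-bound metalloproteinase, by 2.71 (adjusted p = 0.00264) and 2.74 (adjusted p = 0.00851). Olfm4, a specific granule protein, fell by 2.10 in Fabp4 fl/fl mice (adjusted p = 0.0341). In ICH-Fabp4CKO it had 11, 43 and 9 counts, lowest in mouse 3, where Ngp, Ltf and Camp were highest. Azurophil genes outside the 10 were sparse, with at most 1 count of Ctsg in any library and 5 to 16 counts of Prtn3 in every library.

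Among 13 further neutrophil genes, 6 of 7 tested rose in Fabp4 fl/fl mice and 8 of 8 in Fabp4CKO mice, with 0 lower in either, beside the same 26.2% and 24.5% of all genes. As with the 10, genes near 0 in sham passed the filter through their ICH libraries. Cxcr2, the chemokine receptor of mature neutrophils, had 71, 30 and 22 counts in ICH-Fabp4 fl/fl and 274, 41 and 161 in ICH-Fabp4CKO, against 1 to 4 in the sham libraries. It rose by 4.14 (adjusted p = 0.00518) and 7.15 (adjusted p = 0.00768). Ly6g, the antigen by which mouse neutrophils are stained, was at 0 counts in all 3 ICH-Fabp4 fl/fl libraries and had 4, 0 and 18 counts in ICH-Fabp4CKO. Stfa2l1 and Mrgpra2b, transcripts of mature neutrophils, had 25, 0 and 13 and 46, 0 and 4 counts in ICH-Fabp4CKO and at most 3 and 1 in any other library. The summed level of the 13 genes was 41.6 to 73.2 CPM in ICH-Fabp4 fl/fl and 65.2 to 172 CPM in ICH-Fabp4CKO, and 4.67 to 11.997 CPM in sham libraries. Csf3r held most of that sum in every library, at 31.42 to 44.95 CPM in ICH-Fabp4 fl/fl and 55.46 to 96.08 CPM in ICH-Fabp4CKO. The sum was thus largely the level of that gene and not of the list.

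Between the ICH genotypes, 0 of the 9 tested genes of that list were called, 9 had positive values, and Csf3r alone had an unadjusted p under 0.05. Csf3r had 639, 504 and 674 counts in ICH-Fabp4 fl/fl and 1463, 1041 and 1758 in ICH-Fabp4CKO, a log2 fold change of 1.19 (SE 0.26, adjusted p = 0.295). These groups did not overlap, where 8.3% of genes tested were higher in this way and 6.36% were higher at an unadjusted p under 0.05. In sham mice it had 222, 83 and 109 counts (Fabp4 fl/fl) and 90, 148 and 130 (Fabp4CKO). Which cells held Csf3r was not tested. The median of the 9 was 1.19, the same as the value of Csf3r, against 0.06 over all genes tested. Fpr1, Fpr2 and Asprv1 had at most 23, 44 and 18 counts in an ICH-Fabp4 fl/fl library. They had 164, 141 and 76 counts in ICH-Fabp4CKO mouse 1, so nothing is read from the 9 as a set. For the other granule genes 0 of 4 tested were called, 3 had positive values and 1 a negative value, and their median was 0.84. Mmp25 had the lower mean in ICH-Fabp4CKO, 2.17 CPM against 3.76 CPM in ICH-Fabp4 fl/fl. Mouse 2 of ICH-Fabp4CKO was the lowest of its group for Cxcr2, Mmp8, Mmp9, Chil3 and Csf3r, as it was for S100a8, S100a9 and Lcn2, and it had the most neuronal RNA of the group. Olfm4 went the other way, with its highest count of the group, 43, in mouse 2.

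**Figure D4:**
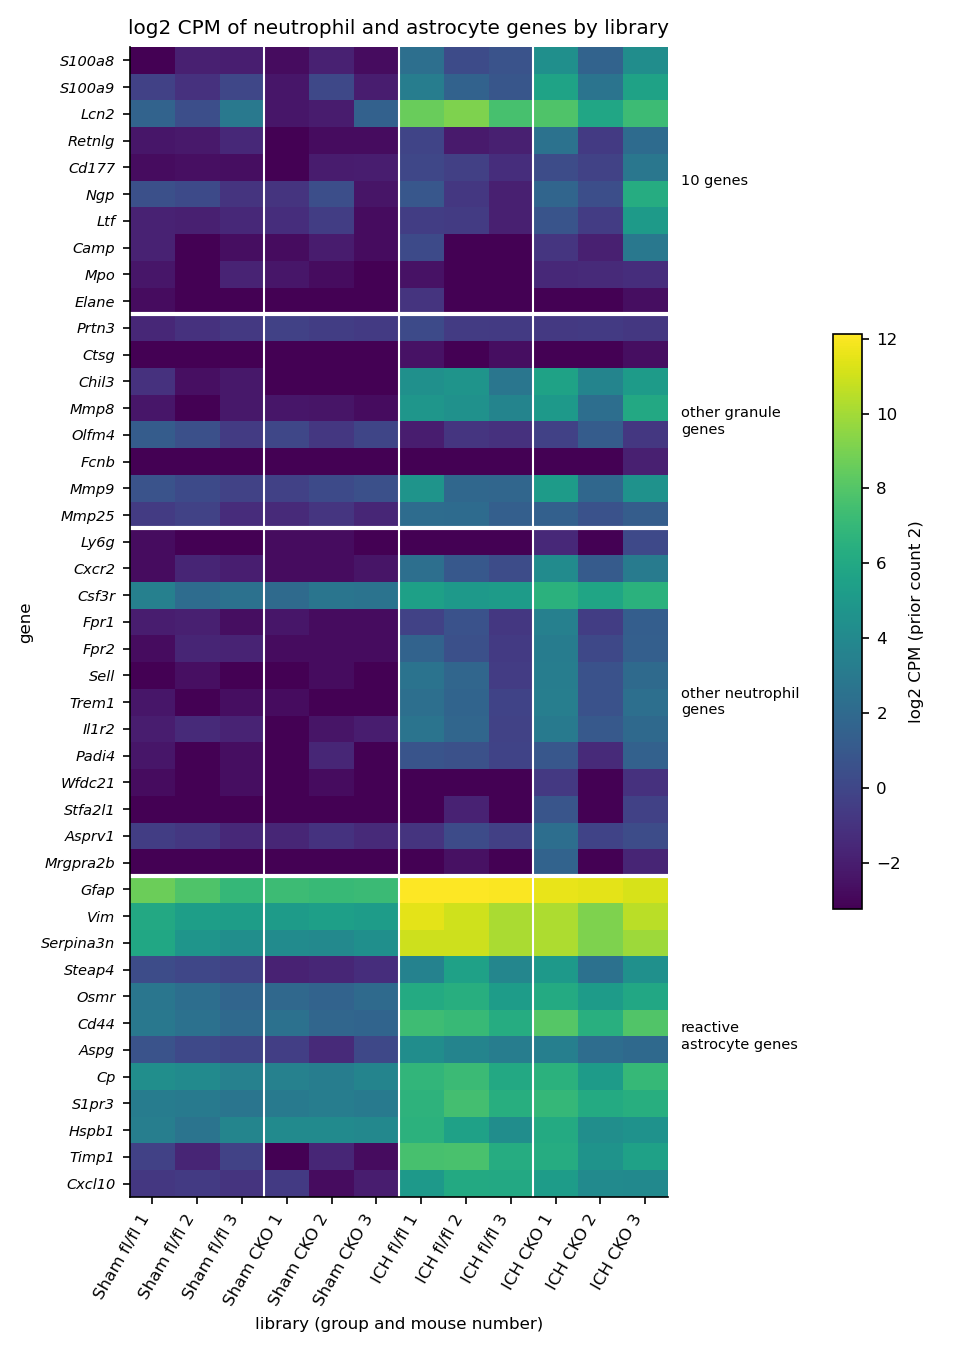
Log2 CPM with a prior count of 2 (colour) of the 10 genes, 8 other granule genes, 13 other neutrophil genes and 12 reactive astrocyte genes (rows) in the 12 libraries (columns). Reactive astrocyte genes are high in all 6 ICH libraries, and most neutrophil genes are highest in ICH-Fabp4CKO mice 1 and 3.

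Receptors and partners through which these proteins act were measured in every group, and all 7 passed the filter. In Fabp4 fl/fl mice 4 rose (Tlr4, Bsg, Cd36 and Pecam1) and 1 fell (Slc22a17), and in Fabp4CKO mice 4 rose (Tlr4, Ager, Cd36 and Pecam1). Over all genes tested, 26.2% were called higher and 19.3% lower in Fabp4 fl/fl mice, and 24.5% and 11.1% in Fabp4CKO mice. Tlr4, a receptor of the S100a8 and S100a9 complex, rose by 3.36 (SE 0.38, adjusted p = 0.000791) and 4.60 (SE 0.74, adjusted p = 0.00950). Ager, the receptor for advanced glycation end products, rose by 3.48 in Fabp4CKO mice (SE 0.41, adjusted p = 0.00589) and had 0.45 in Fabp4 fl/fl mice (adjusted p = 0.576), while its sham libraries had 42, 42 and 12 counts in Fabp4 fl/fl and 5, 4 and 11 in Fabp4CKO mice. Slc22a17, a receptor that takes up lipocalin 2, fell by 1.01 in Fabp4 fl/fl mice (SE 0.27, adjusted p = 0.0197) and had -1.10 in Fabp4CKO mice (adjusted p = 0.101).

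Cd36, a scavenger receptor that binds fatty acids carried by the S100 complex, had 1072, 963 and 556 counts in ICH-Fabp4 fl/fl and 4406, 165 and 15942 in ICH-Fabp4CKO. It was highest in mouse 3 and lowest in mouse 2, as Ngp was. Between the ICH genotypes 0 of the 7 were called and 2 were lower at an unadjusted p under 0.05, where 5.82% of genes tested were. These were Bsg, which encodes an S100a9-binding immunoglobulin-family receptor (-0.65, adjusted p = 0.355), and Pecam1, to which Cd177 binds on endothelium (-1.26, adjusted p = 0.343). Pecam1 had 3828, 2960 and 1873 counts in ICH-Fabp4 fl/fl and 1515, 975 and 1301 in ICH-Fabp4CKO. It was 1 of 3 endothelial genes counted, of which 0 were called and all 3 were lower at an unadjusted p under 0.05. Their summed level was 258 to 656 CPM in ICH-Fabp4 fl/fl and 108 to 195 CPM in ICH-Fabp4CKO.

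Markers of other cells that move with a hematoma were set beside these values. Erythroid genes, a measure of blood RNA, summed to 175 to 624 CPM in ICH-Fabp4 fl/fl and 120 to 1116 CPM in ICH-Fabp4CKO, where mouse 1 was the highest and mouse 3 the lowest. Hbb-bs, adult beta globin, had 9096, 1168 and 1165 counts in ICH-Fabp4CKO, so mouse 3, with the most Ngp, did not have the most globin. Pf4, a platelet gene, had 459, 50 and 866 counts in that group and 774, 338 and 256 in ICH-Fabp4 fl/fl. Monocyte genes had 5 of 5 called higher after ICH in each genotype and 0 called between the ICH genotypes, microglial genes 6 of 6 and 0, and T, NK and B cell genes 2 of 2 and 1 of 1 tested and 0. Over all genes tested, 26.2% were called higher after ICH in Fabp4 fl/fl mice and 24.5% in Fabp4CKO mice. Of the 6 microglial genes, 3 were higher and 0 lower in ICH-Fabp4CKO than in ICH-Fabp4 fl/fl at an unadjusted p under 0.05, where 6.36% of genes tested were higher. The part of these cells in the results on the 10 genes was not tested.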

How the data were processed

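RNA-seq of poly(A) RNA from 12 mice (Illumina NovaSeq) was analysed. The authors deposited a table of estimated counts (expected counts) per gene, not normalized, for 21956 genes with Ensembl identifiers and symbols. In each library 7.36% to 8.69% of the values had a fractional part, so all were rounded to whole counts. The submitters' processing notes name Bowtie2 2.2.8, HISAT2, StringTie 1.3.1 and DESeq2, without saying which step each served, and the genome build is not given in the sources used here. Strand use in counting is not given either.

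Each library is a different mouse, and no library was a copy of another. Tests used edgeR 4.0.16 under R 4.3.3 (TMM, filterByExpr with a minimum count of 10 and total of 15, quasi-likelihood F-test, Benjamini-Hochberg over all genes tested, threshold 0.05) on the 6 libraries compared, or all 12 for the interaction, after a test on simulated data. Standard errors were taken from the fold change and its F statistic. Ratios of summed counts per depth carry exact conditional binomial 95% intervals. Exact permutation of 3 mice against 3 cannot go below p = 0.1 and was not used. The alternatives were relative log expression or no normalization factors, DESeq2 1.42.0, no filter, a block for the replicate number, a joint fit of all 12 libraries, and each library left out.

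The 10 genes and the lists (other granule and neutrophil genes, precursors, attractants, alarmin receptors, elastase inhibitors, astrocyte and other cell markers) were chosen with earlier results of these data known. Named genes are the 10, those of the granule, neutrophil and receptor lists, defining markers, Fabp4, and the 5 genes nearest in profile to S100a9, Ngp and Lcn2. Promoters came from RefSeq tables, which held all 10 genes, and were searched on both strands over the 250 bases before the start, overlaps allowed. Lengths are GENCODE vM21 exon unions. Tables and figures used Python 3.11.15, pandas 2.3.3 and matplotlib 3.10.9.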

Additional observations from a re-analysis of the deposited data

How the results depend on the processing

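Of 161 values of single genes under other normalizations, DESeq2, no filter, the block and the joint fit, 156 kept their direction and side of the threshold and 5 came to pass it. With each library left out, 188 of 209 did, 14 lost the call, 3 gained it and 4 turned sign. The number of the 10 genes called was 3 to 4 for ICH against sham in Fabp4 fl/fl mice, 1 to 7 in Fabp4CKO mice, 0 to 0 between the ICH groups, 0 to 0 between the sham groups and 0 to 1 for the interaction. The value of 1 came without Sham-Fabp4CKO mouse 1 or 3, and that of 7 without ICH-Fabp4CKO mouse 2. Leave-one-out log2 fold changes ran from -1.53 to 0.26 for Ngp (ICH against sham, Fabp4 fl/fl), and in the interaction from -0.30 to 3.67 for Lcn2 and from -0.16 to 1.96 for Cd177. DESeq2 called 3 of the 10 between the ICH groups.

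Over the whole table, DESeq2 called 578 genes between the ICH groups, 150 between the sham groups and 266 for the interaction, and the joint fit of all 12 libraries called 362 between the ICH groups, against 0, 16 and 3. Leaving out single libraries gave 4181 to 8165 calls for ICH against sham in Fabp4 fl/fl mice, 751 to 10099 in Fabp4CKO mice (the highest without ICH-Fabp4CKO mouse 2), 0 to 2 between the ICH groups, 0 to 2862 between the sham groups (the highest without Sham-Fabp4 fl/fl mouse 3) and 0 to 371 for the interaction (the highest without ICH-Fabp4CKO mouse 2). The cause was not tested.

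Same-numbered mice did not deviate together in every pair (correlations above 0.1 in 2, 0, 1 and 0 of 3 pairs in the 4 comparisons), so the numbers were not taken as pairs. With the replicate block, 3, 5, 0, 0 and 0 of the 10 were called in the order above, as without it, and the block left 1 gene of the whole table for the interaction. Camp, Mpo and Elane passed the filter on low counts in no comparison, and at these depths their values rest on few counts.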

Other observations

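Genes for the chemokines and cytokines that draw neutrophils into tissue were counted as a list of 6. In Fabp4 fl/fl mice 2 of the 3 tested rose after ICH, and in Fabp4CKO mice 5 of the 5 tested did, where 26.2% and 24.5% of all genes tested were called higher. Genes near 0 in sham passed the filter through their ICH libraries. Between the ICH genotypes 0 of the 6 were called with edgeR's quasi-likelihood test, and 3 were higher in ICH-Fabp4CKO at an unadjusted p under 0.05, Cxcl2, Cxcl3 and Cxcl5, which are named after their values were seen, where 6.36% of all genes tested were. Cxcl1, another ligand of Cxcr2, had 155, 152 and 62 counts in ICH-Fabp4 fl/fl and 146, 25 and 94 in ICH-Fabp4CKO, a log2 fold change of -0.51 (adjusted p = 0.804). Cxcl3, a ligand of Cxcr2, had 13, 7 and 3 counts in ICH-Fabp4 fl/fl and 321, 68 and 74 in ICH-Fabp4CKO, a log2 fold change of 4.32 (standard error, SE, 0.96, adjusted p = 0.295). Cxcl2, likewise such a ligand, had 30, 24 and 6 counts against 321, 45 and 73 (2.87, SE 1.01, adjusted p = 0.356). Cxcl5 had 9, 14 and 14 counts against 76, 65 and 122 (2.78, SE 0.37, adjusted p = 0.190). The groups did not overlap for these 3 genes, where 8.3% of genes tested were higher without overlap. Cxcl2 and Cxcl3 passed the filter largely through the ICH-Fabp4CKO libraries where they were high, so nothing is read from these counts of genes. Mouse 1 of ICH-Fabp4CKO, the library with 1 Y-linked read, held most of the group's counts of Cxcl2 and Cxcl3, and mouse 3 was the highest for Cxcl5.

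Inhibitors of neutrophil serine proteases were counted as a list of 2. Slpi, the secreted inhibitor of elastase, had 2, 0 and 2 counts in Sham-Fabp4 fl/fl and 31, 30 and 32 in ICH-Fabp4 fl/fl, a rise of 4.64 on the log2 scale (SE 0.63, adjusted p = 0.00149). In Fabp4CKO mice it had 0 counts in the 3 sham libraries and 287, 39 and 61 after ICH (adjusted p = 0.0269), against hardly any Elane in any library. Serpinb1a, an intracellular inhibitor, had log2 fold changes of -0.65 (adjusted p = 0.0774) and -0.57 (adjusted p = 0.105) after ICH in the 2 genotypes. Of 5 genes of neutrophil precursors and cell division, Top2a and Mki67, which every dividing cell expresses, rose in both genotypes, and Ms4a3, a marker of granulocyte and monocyte progenitors, had at most 1 count in any library.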
